A study of Mus musculus with 8 samples.

Results

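Angiogenic factor genes of the vascular endothelial growth factor (VEGF), angiopoietin and hepatocyte growth factor families were followed in fibroblasts of the healing mouse infarct. The members were the rows of the gene table named Vegfa, Vegfb, Vegfc, Pgf, Angpt1, Angpt2, Angpt4 and Hgf, 8 of 54532 genes. Their level was the deposited FPKM, fragments counted relative to gene length and a scaling total of the library. That total was not exactly the library depth. Levels were taken in 4 libraries labelled FTbR2KO, numbered 1 to 4, and 4 labelled TbR2fl/fl, numbered 5 to 8. Both groups were cardiac fibroblasts sorted for the fibroblast receptor PDGFRα from hearts 7 days after coronary occlusion, without culture, and both had received tamoxifen. FTbR2KO denotes knockout of the TGF-β receptor TbR2 (gene Tgfbr2) in fibroblasts, and TbR2fl/fl for controls with the floxed gene. No source used here names the Cre driver, or the age or sex of the mice. The labels do not tie each library to its own animal. The p-values therefore measure only the spread among these libraries, which may be technical.

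VEGF-A drives growth and permeability of blood vessels through the endothelial receptor VEGFR2 (Kdr), while VEGF-B and placental growth factor bind VEGFR1 (Flt1) and VEGF-C mainly supports lymphatic vessels through VEGFR3 (Flt4). Angiopoietin 1 activates the receptor Tie2 (Tek) and stabilizes vessels, and angiopoietin 2 competes with it at the same receptor in a context-dependent way. Hepatocyte growth factor is a mesenchymal product that acts on endothelial and epithelial cells through Met. In an infarct such factors are made by the stroma and by leukocytes, among other cells, and act largely on endothelium. A fibroblast sort would thus hold mainly the sending side of these pathways. The receptor gene Tek (15.1 to 26.8 FPKM) and the co-receptor gene Nrp1 (15.02 to 19.6 FPKM) were nevertheless well measured here.

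Promoter sequence is shown for Angpt4, the member whose groups did not overlap, and for the paralogues Vegfa and Vegfb, whose estimates had opposite signs. The windows are the 250 bases before the RefSeq start site (build GRCm38.p6), 5′ to 3′ on the gene's strand, at chr2:151910957-151911206 (plus strand), chr17:46032378-46032627 (minus strand) and chr19:6987652-6987901 (minus strand). Capitals mark ACGTG and GCGTG, the core letters that hypoxia-inducible factors (HIFs) bind, the GC box GGGCGG and the TATA box TATAAA. Each was searched on both strands.
Angpt4: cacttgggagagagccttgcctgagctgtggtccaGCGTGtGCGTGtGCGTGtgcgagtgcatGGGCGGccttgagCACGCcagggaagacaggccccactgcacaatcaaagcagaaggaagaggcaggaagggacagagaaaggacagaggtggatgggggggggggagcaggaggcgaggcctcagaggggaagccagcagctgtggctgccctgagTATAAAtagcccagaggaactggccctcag
Vegfa: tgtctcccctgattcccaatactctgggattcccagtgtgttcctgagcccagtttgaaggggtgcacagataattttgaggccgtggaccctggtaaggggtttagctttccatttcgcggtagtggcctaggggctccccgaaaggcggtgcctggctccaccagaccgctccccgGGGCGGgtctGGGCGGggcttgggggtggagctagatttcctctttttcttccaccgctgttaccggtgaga
Vegfb: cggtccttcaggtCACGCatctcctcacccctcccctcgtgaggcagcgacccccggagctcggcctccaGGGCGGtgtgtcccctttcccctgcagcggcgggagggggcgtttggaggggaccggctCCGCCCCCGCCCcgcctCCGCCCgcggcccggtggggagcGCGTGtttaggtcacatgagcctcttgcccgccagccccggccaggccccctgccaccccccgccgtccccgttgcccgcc
The Angpt4 window held GCGTG at 4 positions, 1 GC box and a TATA box that begins 30 bases before the start site. That of Vegfa held 2 GC boxes and that of Vegfb 4 GC boxes and 2 matches to GCGTG, and ACGTG was found in none of the 3. Sequence upstream of these 250 bases was not searched, so an absent match holds for the window alone. A second RefSeq start site of Vegfa has its own window (chr17:46025164-46025413), not printed, with 1 match to each of the HIF core motifs and 1 GC box. That window lies inside the span of the gene (46016993 to 46032369), and whether its matches act as promoter sites was not tested. No match overlapped another in these windows. Of 32851 windows of the same length, 16.6% held ACGTG, 28.2% GCGTG, 32.7% GGGCGG and 12.4% TATAAA. The table held a window for 6 of the 8 members.

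Depth was 16.1 to 22.9 M recovered reads in FTbR2KO 1 to 4 and 21.2 to 28.7 M in TbR2fl/fl 5 to 8. It was thus mostly lower under the knockout label, the groups overlapping only through FTbR2KO 4 and TbR2fl/fl 7. The part of depth in the results was not tested. Tgfbr2 was examined first: it measured 60.0, 58.1, 56.9 and 57.8 FPKM in FTbR2KO 1 to 4 and 49.6, 40.3, 46.7 and 45.4 in TbR2fl/fl 5 to 8. Each value under the knockout label thus exceeded every control value, against the label, although a level over the whole gene cannot show whether an exon was deleted. All directions follow the labels. The defining fibroblast genes were abundant (Pdgfra 45.5 to 85.6 FPKM, Col1a1 3496 to 5338 FPKM). The 10 fibroblast markers summed to 11970.5 to 14451.8 FPKM under the label FTbR2KO and 13761 to 15464.6 under TbR2fl/fl. FTbR2KO 1 to 3 lay below all controls, and FTbR2KO 4 lay above TbR2fl/fl 8. The part of this difference in the results was not tested. Summed cardiomyocyte markers were 1.98 to 2.23 FPKM under the label FTbR2KO and 2.56 to 2.79 under TbR2fl/fl, leukocyte markers 7.60 to 10.9 and 8.15 to 11.1. The 8 mural cell markers summed to 56.6 to 99.95 and 61.5 to 88.1 FPKM, led by Rgs5 (12.9 to 32.3) and Notch3 (18.5 to 29.6), and their part in the results was not tested. Ptprc, which encodes the leukocyte antigen CD45, was at 0.0346 FPKM or less. FTbR2KO 1 and TbR2fl/fl 5 stood apart from the other libraries on the first principal component of all tested genes (scores of -24.4 and -20.9 against -0.108 to 19.0, 33.0% of the variance), across genotype. In the titles these carry the lowest 2 of 8 identifiers, and the labels do not say what an identifier marks, so whether it stands for a batch was not tested. The estimate without both is given for each member.

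All 8 members were measured at 1 FPKM or more in all 8 libraries, so none entered the test through 1 group alone. Vegfb, Vegfa and Vegfc had the highest levels. In the controls the mean was 18.8 ± 3.11 FPKM for Vegfb, 18.4 ± 4.49 for Vegfa and 11.8 ± 1.42 for Vegfc (SD, n = 4). Angpt2 followed at 7.56 ± 3.41, Angpt1 at 7.29 ± 0.488 and Pgf at 6.08 ± 1.70 FPKM, and Hgf (1.99 ± 0.150) and Angpt4 (1.57 ± 0.212) were lowest. Vegfb and Vegfa were not separated by their spread, nor were Vegfc and Angpt2, or Angpt2, Angpt1 and Pgf among themselves. Vegfd, the VEGF-C paralogue, which is no member, lay above all of them at 28.6 ± 3.06 FPKM in the controls and 30.5 ± 2.17 in the libraries labelled FTbR2KO. The order of the members there was the same except that Vegfa (23.3 ± 4.75) stood before Vegfb (16.8 ± 1.82).

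**Figure D1:**
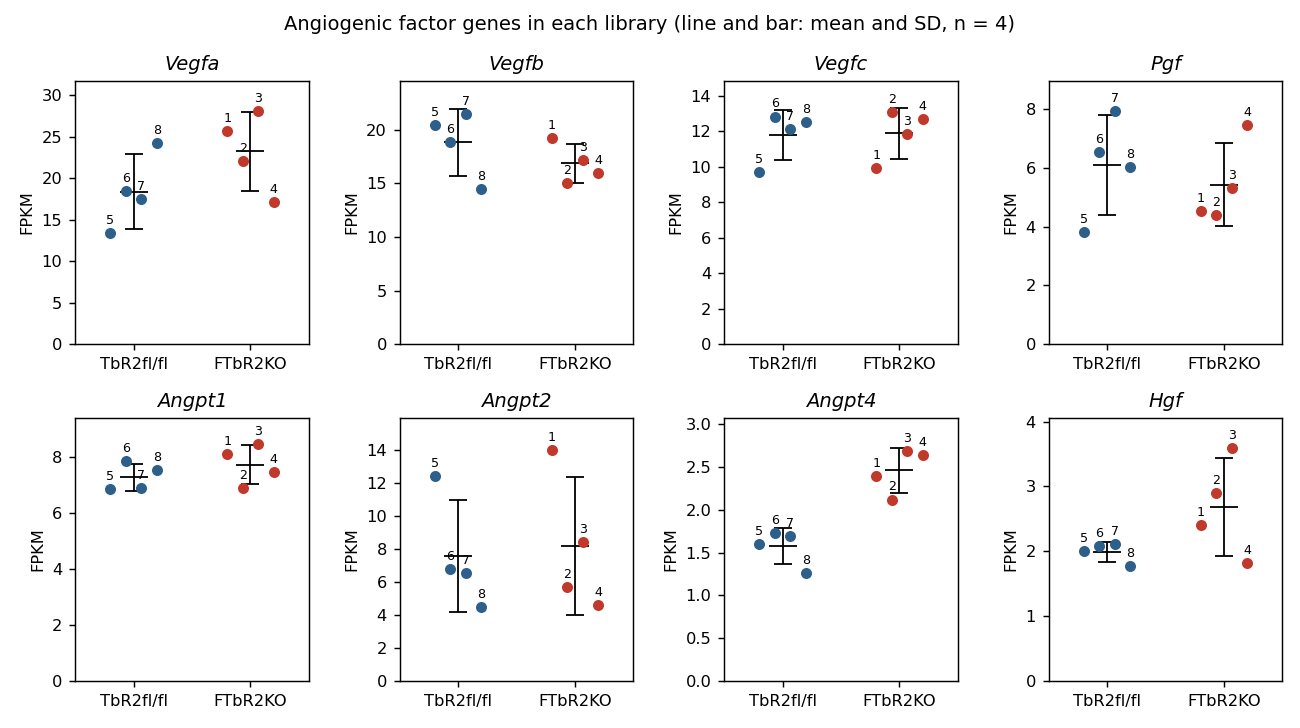
FPKM of each of the 8 genes in the 4 TbR2fl/fl (blue, libraries 5 to 8) and 4 FTbR2KO libraries (red, 1 to 4), with the mean as a line and the SD as a bar, each panel on its own axis from 0. Angpt4 is the panel in which the groups are apart (2.12 to 2.69 against 1.26 to 1.73 FPKM), and Angpt2 is highest in FTbR2KO 1 and TbR2fl/fl 5.

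The genotype comparison asks how TbR2 loss affects the transcripts of infarct fibroblasts. By limma 0 of 8 members passed the adjusted threshold of 0.05, in a comparison in which 0.0171% of tested genes passed (2 of 11667). At an unadjusted p under 0.05 there was 1 member, Angpt4, against 8.61% of tested genes, and limma's voom on recovered reads also gave 0 members past the threshold and 1 at that p. The count at that p was 3 with TPM or without FTbR2KO 4 (Angpt4, Vegfa and Hgf), 3 without TbR2fl/fl 8 (Angpt4, Vegfa and Vegfb), 2 with array weights (Angpt4 and Hgf) and 0 with a filter at 5 FPKM, which removed Angpt4. The groups did not overlap for 1 member, again Angpt4, against 4.41% of tested genes in either direction and 2.52% in the higher direction. Log2 fold changes (FTbR2KO minus TbR2fl/fl, on the log2(FPKM + 1) scale) lay above 0 for 6 members and below for 2, with a median of 0.07 beside -0.0045 over all tested genes. On the TPM scale (values of each library rescaled to one total) the median of all genes moved to 0.15 and all 8 members lay above 0, so the sign of negative estimates smaller than this, in the lists below too, depends on the scaling. The 8 were chosen with earlier results known, and a count of 1 in 8 is not read as a property of the group. In a bulk sample a smaller share of a cell type and less RNA per cell cannot be told apart.

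**Figure D2:**
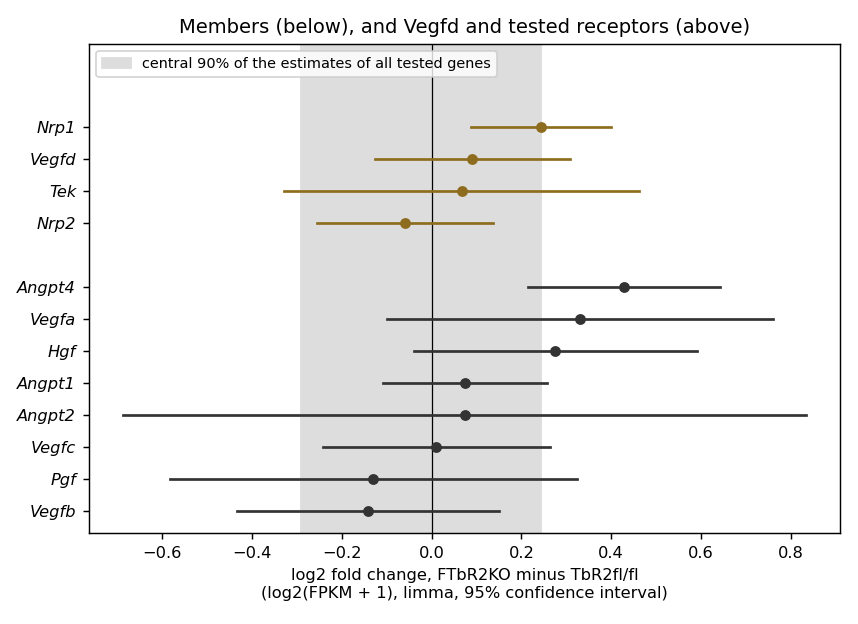
Limma log2 fold change (point) and 95% confidence interval (line) for the 8 members in the lower block and for Vegfd and the tested receptors in the upper block. The grey band spans the central 90% of estimates over all tested genes, and the estimates of Angpt4 (0.43), Vegfa (0.33) and Hgf (0.28) lie beyond its upper edge of 0.24, those of Vegfa and Hgf with intervals that include 0.

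Vegfa, the main blood vessel ligand (chromosome 17, 46016993 to 46032369, minus strand), measured 25.7, 22.1, 28.1 and 17.2 FPKM in FTbR2KO 1 to 4. The controls TbR2fl/fl 5 to 8 had 13.4, 18.5, 17.5 and 24.3 FPKM. The groups overlapped, since FTbR2KO 4 lay below 3 controls and TbR2fl/fl 8 above 2 of the libraries labelled FTbR2KO. Its log2 fold change came to 0.33 (SE 0.19, 95% confidence interval -0.10 to 0.76, limma adjusted p = 0.634, exact permutation p = 0.229). It was 0.14 without FTbR2KO 1 and TbR2fl/fl 5 together, and TbR2fl/fl 5 was the lowest of all 8. It was 0.46 without FTbR2KO 4, 0.47 without TbR2fl/fl 8 and 0.51 with TPM, with unadjusted limma p of 0.0338, 0.0287 and 0.0344 and adjusted p of 0.344, 0.758 and 0.378. Relative to the median of all genes the TPM value was 0.36. The gene has 8 protein-coding transcripts in the annotation, and a gene-level FPKM does not separate its isoforms.

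The VEGFR1 ligands had slightly lower means in the libraries labelled FTbR2KO. For Vegfb (chromosome 19, 6982473 to 6987651, minus strand) the values were 19.2, 15.02, 17.2 and 15.95 FPKM in those libraries and 20.5, 18.8, 21.5 and 14.4 in the controls. Its lowest library was a control, TbR2fl/fl 8, and the groups overlapped, with a log2 fold change of -0.14 (SE 0.13, interval -0.43 to 0.15, limma adjusted p = 0.762). It was -0.16 without FTbR2KO 1 and TbR2fl/fl 5, and -0.26 without TbR2fl/fl 8. Pgf, placental growth factor (chromosome 12, 85166635 to 85177790, minus strand), gave 4.52, 4.40, 5.32 and 7.46 against 3.82, 6.53, 7.93 and 6.04 FPKM. High and low libraries were found in both groups, and the log2 fold change was -0.13 (SE 0.20, interval -0.58 to 0.32, limma adjusted p = 0.872). Without FTbR2KO 1 and TbR2fl/fl 5, its lowest library, it was -0.24. After conversion to TPM the estimates of Vegfb and Pgf lay just above 0 (0.018 and 0.017), and relative to the median of all genes on that scale both were -0.13.

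Within each library Vegfa exceeded Vegfb in all 4 labelled FTbR2KO (ratios of FPKM of 1.08 to 1.64) and in 1 of 4 controls. The control ratios were 0.653, 0.981, 0.813 and 1.68 in TbR2fl/fl 5 to 8, so the highest ratio of all belonged to a control and the groups overlapped. The summed FPKM of Vegfa, Vegfb, Vegfc, Vegfd and Pgf was 87.9 ± 3.18 against 83.7 ± 2.49 (SD, n = 4 each). The groups overlapped in this sum, with FTbR2KO 4 at 83.4 FPKM and TbR2fl/fl 6 to 8 at 84.0 to 85.7. Of that sum Vegfa made up 20.6% to 31.1% under the label FTbR2KO and 16.7% to 28.9% under TbR2fl/fl, and Vegfd 30.9% to 37.8% and 30.5% to 40.9%.

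Vegfc, the lymphatic ligand (chromosome 8, 54077606 to 54187096, plus strand), had near-equal group means. It measured 9.90, 13.1, 11.8 and 12.7 FPKM in FTbR2KO 1 to 4 and 9.70, 12.8, 12.1 and 12.5 in TbR2fl/fl 5 to 8. The lowest libraries were FTbR2KO 1 and TbR2fl/fl 5, and the other 6 lay within 11.8 to 13.1 FPKM. The log2 fold change was 0.010 (SE 0.11), with a 95% confidence interval of -0.24 to 0.26 (limma adjusted p = 0.986), and 0.0051 without FTbR2KO 1 and TbR2fl/fl 5. Its sign changed under 4 of 21 alternatives.

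Among the angiopoietins, Angpt4 was the member with separate groups. Angiopoietin 4 is a Tie2 ligand, and the gene (chromosome 2, 151911210 to 151945337, plus strand) overlaps no other annotated gene. It measured 2.39, 2.12, 2.69 and 2.64 FPKM in FTbR2KO 1 to 4 and 1.60, 1.73, 1.70 and 1.26 in TbR2fl/fl 5 to 8, from 81 to 141 reads per library. The lowest FTbR2KO value, 2.12, was above the highest control value, 1.73. The means were 2.46 ± 0.262 and 1.57 ± 0.212 FPKM (SD, n = 4 each), a ratio of 1.56. On the log2(FPKM + 1) scale the difference was 0.43 (SE 0.095, 95% confidence interval 0.21 to 0.64), with an unadjusted limma p of 0.00136 and an adjusted p of 0.571 over 11667 genes. The exact two-sided permutation p was 0.0286, the smallest that 4 against 4 allow, and this p is not adjusted for the 8 members. The difference was 0.37 to 0.48 when 1 library was left out and 0.44 without FTbR2KO 1 and TbR2fl/fl 5. It was 0.62 with a pseudocount of 0.1 and 0.65 by voom, the 1 added to FPKM being large beside so low a level. With TPM it was 0.71, or 0.56 relative to the median of all genes. The limma adjusted p was 0.157 to 0.954 over the 20 alternatives that tested it.

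Angpt1, the Tie2 agonist (chromosome 15, 42424723 to 42676977, minus strand), was the steadiest member, its highest library being 1.23 times its lowest. The values were 8.13, 6.90, 8.48 and 7.46 FPKM in FTbR2KO 1 to 4 and 6.88, 7.86, 6.89 and 7.53 in the controls. The groups overlapped, and the log2 fold change was 0.075 (SE 0.081, interval -0.11 to 0.26, limma adjusted p = 0.802), or 0.029 without FTbR2KO 1 and TbR2fl/fl 5. An antisense gene, Gm17473, lies within its span, and no source used here says whether counting used the strand.

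Angpt2, the context-dependent Tie2 ligand (chromosome 8, 18690263 to 18741562, minus strand), was the most variable, its highest library being 3.14 times its lowest. It measured 14.0, 5.72, 8.42 and 4.58 FPKM in FTbR2KO 1 to 4 and 12.4, 6.82, 6.54 and 4.47 in TbR2fl/fl 5 to 8. Each group held 1 high library, FTbR2KO 1 or TbR2fl/fl 5, and the remaining 6 lay between 4.47 and 8.42 FPKM. The log2 fold change was 0.074 (SE 0.34), with an interval as wide as -0.69 to 0.83 (limma adjusted p = 0.963), and 0.044 without those 2 libraries. Angpt2 lies within the span of Mcph1 on the opposite strand, so its reads could include some of that gene.

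The Angpt2 to Angpt1 ratio of FPKM, which compares transcripts in the sorted cells and not the ligands at Tie2, was highest in 1 library of each group. It was 1.72 in FTbR2KO 1 and 1.81 in TbR2fl/fl 5. In the other libraries it was 0.830, 0.993 and 0.614 (FTbR2KO 2 to 4) and 0.868, 0.949 and 0.593 (TbR2fl/fl 6 to 8), so that both groups covered nearly the same range. Markers of epicardium and mesothelium varied between the same libraries: their 8 genes summed to 40.05, 13.5, 27.5 and 4.54 FPKM in FTbR2KO 1 to 4 and 26.3, 11.6, 0.793 and 16.2 in TbR2fl/fl 5 to 8. With that sum as a covariate the Angpt2 estimate was -0.090 (SE 0.32). The part of those cells in the Angpt2 levels was not tested.

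**Figure D3:**
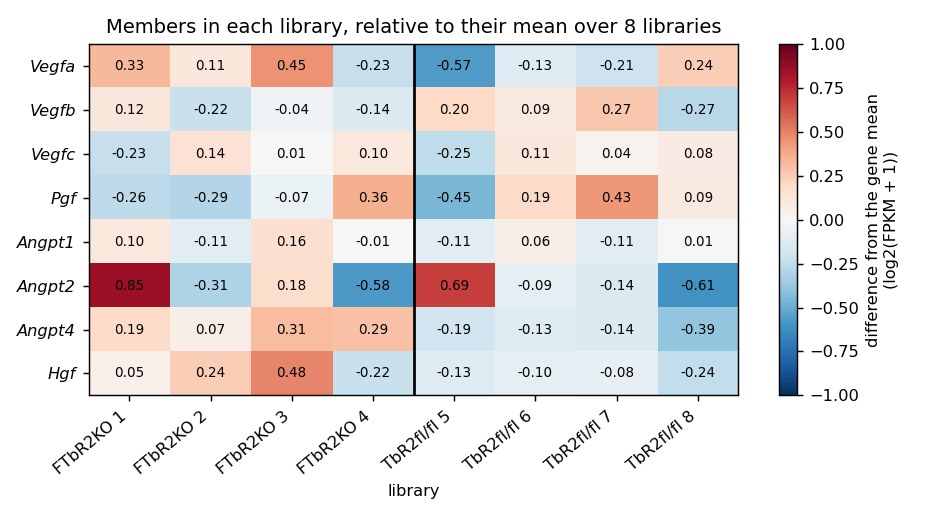
Difference of each gene from its own mean over the 8 libraries, on the log2(FPKM + 1) scale, with FTbR2KO libraries left of the line and TbR2fl/fl right of it. Angpt2 is high in FTbR2KO 1 (0.85) and TbR2fl/fl 5 (0.69), the libraries in which Vegfc is lowest, while Angpt4 is above its mean in every FTbR2KO library.

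Hgf, the Met ligand (chromosome 5, 16553495 to 16620152, plus strand), measured 2.40, 2.89, 3.60 and 1.82 FPKM in FTbR2KO 1 to 4 and 2.00, 2.07, 2.11 and 1.77 in TbR2fl/fl 5 to 8. FTbR2KO 1 to 3 lay above all controls and FTbR2KO 4 among them. The spread differed, with an SD of 0.756 in the libraries labelled FTbR2KO and 0.150 in the controls. The log2 fold change was 0.28 (SE 0.14, interval -0.04 to 0.59, limma adjusted p = 0.602, exact permutation p = 0.114). Without FTbR2KO 3, the highest library, it was 0.16, and without FTbR2KO 4 it was 0.40 with an unadjusted limma p of 0.00825 (adjusted p = 0.246). It was 0.49 with TPM (0.34 relative to the median of all genes) and 0.31 without FTbR2KO 1 and TbR2fl/fl 5. Gene models annotated as to be experimentally checked overlap Hgf on its strand.

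The members with the widest range of log2(FPKM + 1) over the 8 libraries, Angpt2, Vegfa and Pgf, were set beside all other named protein-coding genes tested (10406). Likeness was the root mean square difference of log2(FPKM + 1), each gene centred on its own mean, over the 8 libraries. The genes nearest to Angpt2 were Cd68, a lysosomal protein abundant in macrophages (0.18), the secreted Wnt modulator Sfrp4 (0.18) and the sulfotransferase gene Sult1a1 (0.18), beside an Angpt2 range of 1.46. Cd68 measured 2.01 to 7.15 FPKM, in libraries where Ptprc was at or near 0. Smad6, an inhibitory Smad induced by BMP signals, was nearest to Vegfa (0.13, beside a Vegfa range of 1.02), with 29.2, 22.9, 33.4 and 22.9 FPKM in FTbR2KO 1 to 4 and 18.3, 25.2, 23.2 and 29.1 in the controls. Ceruloplasmin (Cp, 0.16) and G6pdx, the first enzyme of the pentose phosphate pathway (0.16), came next. Nearest to Pgf were Amacr (0.12), the calcium channel gene Orai1 (0.13) and the transcription factor gene Cebpd (0.13), beside a range of 0.89.

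The receptors of these ligands were mostly low, with Tek and Nrp1 as exceptions. Of 8 receptors and co-receptors, 5 stayed under 1 FPKM in all libraries and were not tested: Flt1 (0.145 to 0.661 FPKM), Kdr (0.152 to 0.472), Flt4 (0.208 to 0.815), Tie1 (0.0586 to 0.429) and Met (0.0255 to 0.439). Tek, which encodes the angiopoietin receptor Tie2 (chromosome 4, 94739289 to 94874976, plus strand), measured 23.3, 19.4, 16.7 and 23.2 FPKM in FTbR2KO 1 to 4 and 20.6, 17.2, 26.8 and 15.1 in the controls. Its level thus exceeded that of its ligands Angpt1, Angpt2 and Angpt4 in every library, and the groups overlapped (log2 fold change 0.067, SE 0.18, limma adjusted p = 0.933). The other 9 genes of the endothelial marker list reached no more than 1.53 FPKM (Esam), and their sum was 2.54 to 4.38 FPKM under the label FTbR2KO and 3.06 to 5.08 under TbR2fl/fl. No annotated gene overlaps Tek, and the microRNA gene Mir1903 lies within Nrp1.

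**Figure D4:**
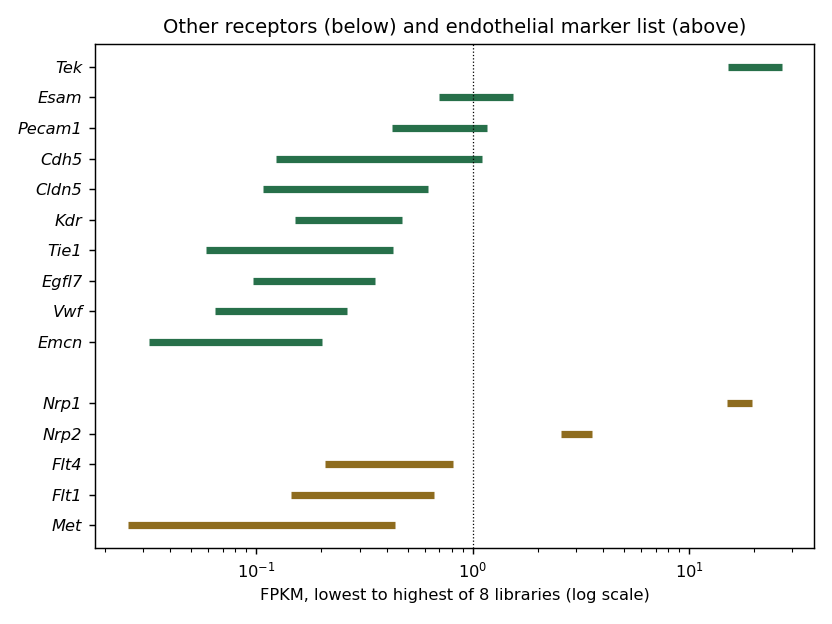
Lowest to highest FPKM over the 8 libraries (bars, log axis, dotted line at 1 FPKM) for 5 receptors and co-receptors in the lower block and for the 10 endothelial markers in the upper block. Tek (15.1 to 26.8 FPKM) and Nrp1 (15.02 to 19.6) stand well above the endothelial markers, none of which exceeds 1.53 FPKM apart from Tek.

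Nrp1, neuropilin 1, a co-receptor that binds VEGF-A and placental growth factor (chromosome 8, 128358604 to 128503363, plus strand), measured 18.4, 17.2, 19.6 and 17.9 FPKM in FTbR2KO 1 to 4. The controls had 15.3, 15.1, 15.7 and 15.02 FPKM, so the groups did not overlap. Its log2 fold change came to 0.24 (SE 0.069, interval 0.09 to 0.40), a ratio of means of 1.20, with a limma adjusted p of 0.571 and an exact permutation p of 0.0286. Over the alternatives the estimate was 0.21 to 0.42 and the limma adjusted p 0.157 to 0.954. Nrp2, which binds VEGF-C, measured 3.17 ± 0.427 against 3.33 ± 0.121 FPKM (SD, n = 4 each; log2 fold change -0.06, SE 0.087). Of the 3 tested receptors, 0 passed the adjusted threshold and 1 had groups that did not overlap, beside 4.41% of all tested genes (2.52% in the higher direction).

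VEGF-C and hepatocyte growth factor are secreted as precursors that proteases activate. Of 17 genes of activation and its control, 10 were tested and 0 passed, with 4 estimates above 0 and 6 below (median -0.06). The transcripts of the liver and plasma proteases that activate hepatocyte growth factor (Hgfac, Hpn, Klkb1, F12) were all under the filter. Smallest p-values were those of Plat, tissue plasminogen activator (35.4 ± 1.46 against 32.2 ± 1.87 FPKM), and Plau, urokinase (8.71 ± 1.16 against 10.2 ± 1.72). The convertase genes Pcsk5 (5.19 ± 0.575 against 4.58 ± 0.593) and Furin (20.7 ± 2.19 against 23.0 ± 1.89) came next, with limma adjusted p from 0.640 to 0.693 for these 4.

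Vegfa is a classical target of HIFs, which prolyl hydroxylases mark for degradation in the presence of oxygen. Of 9 oxygen-sensing genes 8 were tested and 0 passed, 2 above 0 and 6 below (median -0.04). Egln2, a prolyl hydroxylase gene, measured 11.2, 10.4, 12.3 and 12.2 FPKM in FTbR2KO 1 to 4 and 14.3, 13.2, 12.8 and 13.4 in the controls. The groups did not overlap, in the lower direction (1.89% of tested genes), with a log2 fold change of -0.20 (SE 0.077, limma adjusted p = 0.571). Over the alternatives it was -0.23 to -0.05, with a limma adjusted p of 0.203 to 0.954. Epas1, which encodes HIF-2α, gave 25.7 ± 2.51 against 22.0 ± 2.30 FPKM, Hif1an, an asparaginyl hydroxylase, 3.71 ± 0.511 against 4.31 ± 0.479, and the HIF partner Arnt 11.7 ± 0.491 against 10.9 ± 0.644.

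Genes known to be induced through HIFs did not share one direction. Of 12 on the list 10 were tested and 0 passed, with 5 above 0 and 5 below and a median of -0.05. Ddit4, an inhibitor of mTORC1, measured 31.9, 36.3, 34.6 and 50.1 FPKM in FTbR2KO 1 to 4 and 50.6, 59.5, 46.9 and 65.4 in the controls, and the groups overlapped through FTbR2KO 4 and TbR2fl/fl 7. Its log2 fold change was -0.54 (SE 0.16, limma adjusted p = 0.571), opposite in sign to that of Vegfa, whose interval included 0. HIF activity was not tested. The glycolysis regulator Pfkfb3 measured 3.85 ± 0.465 against 3.32 ± 0.351 FPKM, the mitophagy receptor gene Bnip3 6.88 ± 0.893 against 8.37 ± 2.33, and Adm, which encodes the vasodilator adrenomedullin, 18.1 ± 1.85 against 16.3 ± 2.11.

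Other ligands with roles in vessel growth gave 0 of 19 tested past the threshold, 12 above 0 and 7 below (median 0.06). The heparin-binding cytokine genes Ptn (138 ± 39.5 against 195 ± 48.8 FPKM) and Mdk (57.0 ± 10.8 against 77.0 ± 19.1) had lower means in the libraries labelled FTbR2KO. Slit3, a guidance ligand (58.1 ± 17.4 against 41.3 ± 9.39), and Edn1, the precursor of endothelin 1 (10.3 ± 0.944 against 8.86 ± 1.67), had higher ones. In each of these 4 the groups overlapped, with limma adjusted p from 0.591 to 0.654.

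The list drawn up as secreted inhibitors of vessel growth gave 0 of 12 tested past the threshold, with 9 above 0 and 3 below (median 0.16). Action of the listed genes on vessels was not measured. Cnmd, chondromodulin, a cartilage matrix protein that keeps tissue free of vessels, measured 10.7, 13.7, 10.5 and 2.87 FPKM in FTbR2KO 1 to 4 and 1.76, 2.07, 2.65 and 0.782 in the controls. The groups did not overlap (2.52% of tested genes in the higher direction), although FTbR2KO 4 lay just above TbR2fl/fl 7, and the log2 fold change was 1.78 (SE 0.39, limma adjusted p = 0.571). Over the 20 alternatives that tested it the estimate was 1.56 to 2.26 and the limma adjusted p 0.0278 to 0.954. The value of 0.0278 passed the threshold and came without FTbR2KO 4, the lowest of the libraries labelled FTbR2KO. Adamts1, a protease that binds VEGF-A, measured 82.2 ± 11.9 against 64.4 ± 14.5 FPKM, and the metalloproteinase inhibitor gene Timp3 96.4 ± 15.5 against 80.3 ± 16.6. Isg15, an interferon-induced gene also placed on the list, measured 26.3 ± 3.60 against 34.0 ± 7.75.

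**Figure D5:**
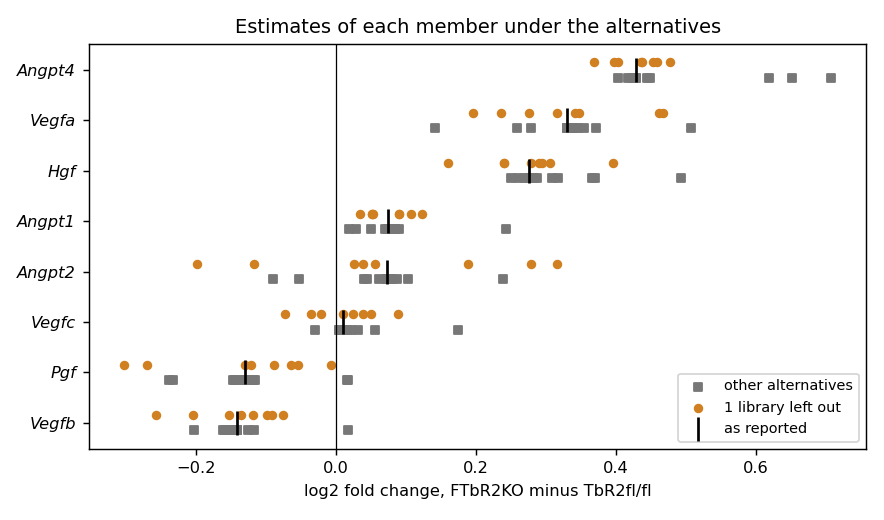
Log2 fold change of each member as reported (bar), with 1 library left out (orange) and under the other alternatives (grey). Angpt4, Vegfa, Hgf and Angpt1 lie above 0 throughout, while Angpt2, Vegfc, Pgf and Vegfb have estimates on both sides of 0.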

How the data were processed

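RNA from 8 sorted fibroblast samples was sequenced as poly(A) libraries (NEBNext Ultra, per the labels' protocols). The authors' gene-level FPKM was used as deposited, with names, coordinates and lengths from the same table. Builds mm10 and GRCm38.p6 and the tools HTSeq 0.6.1, Cufflinks 2.1.1, TopHat2 2.0 and CASAVA are listed, without roles, per the submitters' processing notes. FPKM times gene length was a whole multiple of 1 step per library (100% of nonzero values within 0.01 of a whole number), which gave the reads.

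Genes with FPKM of at least 1 in at least 4 samples were compared on log2(FPKM + 1) with limma 3.58.1 (R 4.3.3; trended variance, no covariate, Benjamini-Hochberg adjustment over all tested genes, two-sided). Single genes also had an exact permutation test. The fit was tested on simulated reads. Members and lists were chosen with earlier results of these data known. The named genes are the members, Tgfbr2, Vegfd, 8 receptors and the 4 genes of each list with the smallest p, and 3 nearest genes of 3 members. Markers are named as levels only. Gene models were GENCODE vM21 (GRCm38), whose coordinates matched the table. Promoters came from RefSeq. Alternatives were pseudocount, filter, scaling, array weights, voom on recovered reads, marker covariates and left-out libraries; covariates for endothelial markers without Tek and for epicardial markers were added after seeing the data.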

Additional observations from a re-analysis of the deposited data

Results flagged for a closer look

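Of 76 groups of 4 libraries examined (38 genes), 3 held a library far from the other 3 by Dixon's criterion, about 1 in 20 being expected by chance, and none of the 3 was among the 8 angiogenic factors. Timp3 measured 73.2 FPKM in FTbR2KO 4 against 104 to 105 in FTbR2KO 1 to 3. Isg15 measured 20.95 FPKM in FTbR2KO 3, the other libraries of its group lying between 27.7 and 28.6. Arnt measured 11.9 FPKM in TbR2fl/fl 5 against 10.5 to 10.7 in the other controls.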

How the results depend on the processing

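No member passed the threshold under any of the 21 alternatives, the smallest limma adjusted p of a member being 0.157 to 0.954. Angpt4 had an unadjusted limma p under 0.05 in all 20 that tested it, and the filter at 5 FPKM removed Angpt4 and Hgf. The count of genes past the threshold over all genes, 2 as reported, was 1 with the filter at 5 FPKM, 0 without FTbR2KO 1 and TbR2fl/fl 5 together (1197 at an unadjusted p under 0.05) and 1 to 6 with 1 library left out, the 6 being without FTbR2KO 4. Estimates that changed sign were those of Vegfb (0.018) and Pgf (0.017) after conversion to TPM, Vegfc with array weights (-0.029), Pgf with the epicardial covariate (0.016), and Angpt2 with the endothelial covariate without Tek (-0.053) and with the epicardial covariate (-0.090), both covariates chosen after seeing the data. The cause was not tested, except that TPM moved the median of all genes to 0.15. With 1 library left out the estimate ranged from -0.073 to 0.088 for Vegfc (below 0 without FTbR2KO 2 (-0.04) or 4 (-0.02) or TbR2fl/fl 5) and from -0.20 to 0.32 for Angpt2 (below 0 without FTbR2KO 1 or TbR2fl/fl 8 (-0.12)). The corresponding ranges were 0.20 to 0.47 for Vegfa, 0.16 to 0.40 for Hgf, -0.26 to -0.08 for Vegfb, -0.30 to -0.0064 for Pgf and 0.035 to 0.12 for Angpt1. No paired analysis was made because the labels name no litter, batch or pairing. With 81 reads in its lowest library, Angpt4 is the member that depth limits most.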

Other observations

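Median-of-ratios size factors computed from the deposited FPKM were 1 in all 8 libraries. The deposited values were thus already on that scale, and applying it left every estimate where it was. The total by which each library had been scaled differed from its recovered reads by 7.90% in FTbR2KO 1 and 6.12% in TbR2fl/fl 5, and by -3.47% to 0.573% in the other libraries. The 2 libraries with high Angpt2 and low Vegfc are thus those with the largest such differences, beside a 3.14-fold range of Angpt2 over all 8. Whether the scaling bears on these levels was not tested.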
